A study of Mus musculus with 2 samples.

Results

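The clustered histone genes encode the linker histone H1 and the core histones H2A, H2B, H3 and H4, and here they are the rows whose symbol begins with Hist1h, Hist2h, Hist3h or Hist4h. Of the 16902 genes listed in at least 1 of the deposited tables, 59 were such rows. They comprised 6 H1, 14 H2A, 16 H2B, 11 H3 and 12 H4 genes. By cluster, 48 lay in Hist1 on chromosome 13, 8 in Hist2 on chromosome 3, 2 in Hist3 on chromosome 11 and 1 was Hist4h4 on chromosome 6. RNA came from EpCAM-positive epithelial cells of mouse breast tumours. The tumours were PyMT;Zeb1cKO (a polyoma middle T tumour model with a conditional knockout of the transcription factor Zeb1) in 1 library and PyMT, with the same oncogene and no such knockout, in the other. The sources used here do not give the strain, age or number of mice behind a library, the promoters that drive the oncogene and the knockout, or which part of Zeb1 was deleted. With 1 library per group, genotype cannot be told apart from tumour, animal or batch, no test between genotypes was possible, and each difference below is one between these libraries.

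Replication-dependent histone genes are switched on as cells enter S phase, when new chromatin needs new histones. Unlike other animal mRNAs, their messages normally lack a poly(A) tail and end just after a stem-loop, which is bound by the protein Slbp. Some of these genes also make polyadenylated transcripts, mainly in cells that have stopped dividing. The libraries were prepared by oligo(dT) capture of poly(A) RNA, per the labels' protocols, so the counts below weight polyadenylated histone transcripts, and how much tailless message was carried along was not measured.

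The 3′ ends are shown because they bear on what oligo(dT) capture can see. Each gene's annotated transcripts (GENCODE M21, GRCm38) were searched on the sense strand for the stem-loop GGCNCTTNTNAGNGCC, in which N is any base. It was found in 40 of 59 genes and in 0.0952% of all 58797 protein-coding transcripts, and no match says only that these letters are not in the annotated transcript. A choice of the genes that held most counts or lay farthest apart is given with the stem-loop in capitals and up to 5 bases on either side.
Hist1h2ao: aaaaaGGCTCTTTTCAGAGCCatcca
Hist1h2ae: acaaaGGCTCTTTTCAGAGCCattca
Hist2h2aa1: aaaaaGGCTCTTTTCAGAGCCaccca
Hist3h2a: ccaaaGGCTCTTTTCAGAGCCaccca
Hist1h1c: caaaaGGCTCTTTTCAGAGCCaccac
Hist1h1e: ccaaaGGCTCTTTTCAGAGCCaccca
Hist1h1d: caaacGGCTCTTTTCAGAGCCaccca
Hist1h3c: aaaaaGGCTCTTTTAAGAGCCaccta
Hist1h4i: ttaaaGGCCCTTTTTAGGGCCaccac
Hist1h4m: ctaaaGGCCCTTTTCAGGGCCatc
The most frequent form, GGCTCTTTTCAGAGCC, was found in 23 genes. The 9 H4 genes with a match carried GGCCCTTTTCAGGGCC (6 genes), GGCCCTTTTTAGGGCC (2 genes) or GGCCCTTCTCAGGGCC (1 gene). At its longest, the annotated transcript went on for 31 bases after the stem-loop in Hist1h2ao and 35 in Hist2h2aa1. In Hist1h1c it went on for 840, in Hist1h1e for 1153 and in Hist3h2a for 1643. The gene lengths deposited with the counts were 725, 782 and 508 bases for these 3 genes. The models that were counted thus cannot hold the whole of these longer ends. No match was found in the transcripts of Hist1h2bc and Hist2h2be, both H2B genes. Hist1h2ao and Hist1h2ae, which were higher in the knockout library, and Hist1h1e and Hist1h1d, which were lower, carried the same stem-loop letters. A polyadenylation hexamer AATAAA stood in the last 50 bases of an annotated transcript of 13 of the 59 genes (22%), against 40.5% of all protein-coding transcripts. For hexamer and stem-loop alike, the histone share counts genes with any matching transcript and the background counts transcripts, so the shares are not alike.

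Estimated counts totalled 21277484 in the PyMT;Zeb1cKO library and 21580274 in the PyMT library. Zeb1 itself had 38 in the knockout library and 96 in the PyMT library, and the ratio of its counts, scaled to library totals, was 0.401 (0.268 to 0.59, a 95% interval that covers counting error only, as do those below). Epcam stood at 479.66 FPKM (fragments scaled to gene length and library depth) in the knockout library and 740.82 in the PyMT library, and the 6 epithelial markers, 3 of them at least 2-fold lower, summed to 2386 and 4936. Markers of other cells were also present. The 5 neutrophil markers, all at least 2-fold lower, summed to 97.22 FPKM in the knockout library and 552.8 in the PyMT library, with Ngp and Camp not listed in the knockout library. The 5 skeletal muscle markers (4 of the 4 past the filter 2-fold lower) summed to 2.47 and 190.9 FPKM, and the 5 erythroid markers (2 of 4 lower) to 1237 and 2060. Without a 2-fold difference past the filter, the 5 endothelial markers summed to 40.58 and 57.95, the 5 macrophage to 282.2 and 342.3, the 5 leukocyte to 92.11 and 83.96 and the 5 fibroblast to 617.1 and 497.3, the knockout library being given first in each case. Their part in the histone values was not tested, and in such mixed libraries fewer cells of a type and less RNA per cell cannot be told apart.

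Clustered histone genes lay on both sides of no difference, and most held too few counts for their direction to be read. All 59 together had 5414 estimated counts in the knockout library and 4045 in the PyMT library, a count ratio of 1.36 (1.30 to 1.41). An FPKM of 1 or more in either library was reached by 47 genes. On the log2(FPKM + 1) scale 6 of these were higher by 2-fold or more (12.8%), 8 were lower by as much (17.0%), and 33 lay within 2-fold. Across all 12653 genes compared in the same way, 10.2% were higher and 8.78% lower. How these shares stood to the background depended on the pseudocount and the scale. The median log2 ratio was -0.14, and -0.07 over all 59 genes, against 0.13 over all compared genes. Of the 47, 33 reached an FPKM of 1 in both libraries, 8 in the knockout library alone and 6 in the PyMT library alone. By counts, 11 of the 59 were at least 2-fold higher with an interval that left out 1 (18.6%, against 14.5% of all 16902 genes), and 8 were lower (13.6%, against 11.1%). A pseudocount of 1 understates the difference of low genes, and with 0.1 in its place 12 of the 47 were higher (25.5%, against 14.7% of all compared genes) and 11 lower (23.4%, against 11.6%). On counts scaled with TMM factors, not per length, both shares were below the background, with 3 higher (6.38%, against 9.87%) and 4 lower (8.51%, against 11.8%).

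**Figure D1:**
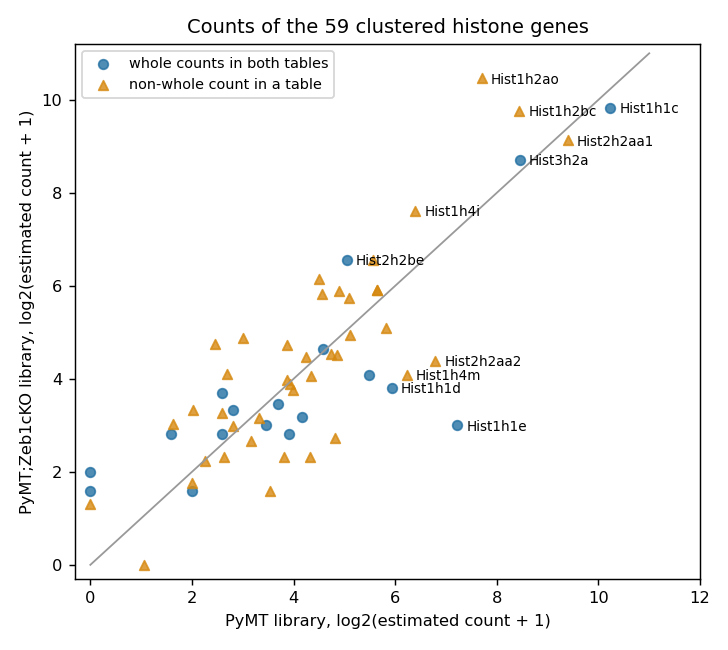
Estimated counts of the 59 clustered histone genes, each a point, as log2(count + 1) in the PyMT;Zeb1cKO library (vertical) and in the PyMT library (horizontal), with a line of equal counts and with genes of whole and non-whole counts marked apart. Hist1h2ao and Hist1h2bc stand above the line, Hist1h1e far below it (7 counts in the knockout library, 148 in the PyMT library), and most genes hold fewer than 20 counts.

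The counts were concentrated in a few genes. The same 5 genes led both libraries: Hist1h2ao, Hist1h1c, Hist1h2bc, Hist2h2aa1 and Hist3h2a, with 76.8% of the histone counts in the knockout library and 68.7% in the PyMT library. Fewer than 20 counts were held by 36 genes in the knockout library and by 34 in the PyMT library. The higher sum came from a pair of genes. Without Hist1h2ao and Hist1h2bc, a choice made after their values were seen, the other 57 genes had 3138 counts in the knockout library and 3489 in the PyMT library, a ratio of 0.912 (0.869 to 0.958).

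Reads that fit more than 1 histone gene weigh on most of these values. An estimated count that is not whole arises where such reads are divided among genes, and 53.4% of the listed histone genes had one in the knockout library and 66.1% in the PyMT library, against 12.8% and 13.0% of all listed genes. In all, 41 of the 59 genes had a non-whole count in a library, and counting intervals for these genes do not cover the division of reads. The 18 genes with whole counts in both libraries had 1547 counts in the knockout library and 1931 in the PyMT library, a ratio of 0.813 (0.759 to 0.869). The other 41 had 3867 and 2114 counts, a ratio of 1.86 (1.76 to 1.96). Single genes weigh on both sums. Hist1h1c held 906 and 1200 counts of the 18 genes. Of the 41, Hist1h2ao held 1406.42 and 207.85 and Hist1h2bc 869.5 and 347.59. The sum over all histone genes is not changed by reads moved among them, whereas a single gene or a part of them is. Hist1h2bq and Hist1h2br, whose longest annotated transcripts were identical over the 1254 bases of the shorter, were given the same estimated count in each library.

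**Figure D2:**
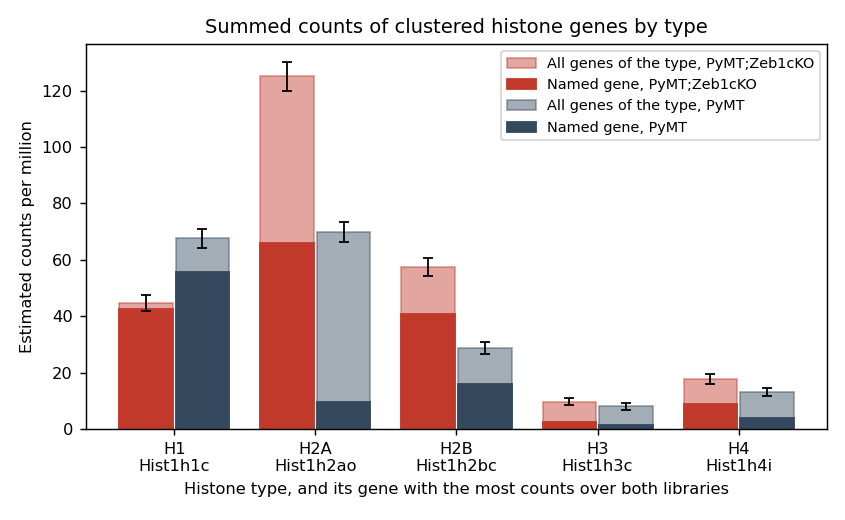
Summed estimated counts of the clustered histone genes of each type, scaled to library totals as CPM (bars from 0, with exact 95% Poisson intervals for counting error), in the PyMT;Zeb1cKO library (left of each pair) and the PyMT library (right), with the part of the named gene in full colour. H2A stood at 125 and 69.9 and H1 at 44.8 and 67.6 CPM in the knockout and PyMT libraries, and Hist1h2ao filled 66.1 and 9.64 of the H2A bars.

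Of the 6 clustered linker histone genes, 3 were at least 2-fold lower by counts in the knockout library and none higher. By the same rule, 11.1% of all 16902 genes were lower and 14.5% higher. H1 binds the DNA that enters and leaves the nucleosome and helps to compact chromatin. Summed, the 6 H1 genes had 953 counts in the knockout library and 1458 in the PyMT library, a ratio of 0.663 (0.61 to 0.72). All 6 had whole counts wherever they were listed. Hist1h1c (H1.2), the most abundant of them, had 906 counts and 77.24 FPKM in the knockout library against 1200 counts and 103.8 FPKM in the PyMT library, a ratio of 0.766 (0.702 to 0.835). Hist1h1e (H1.4) had 7 counts (0.54 FPKM) in the knockout library and 148 counts (11.57 FPKM) in the PyMT library, a ratio of 0.048 (0.019 to 0.101). This was the lowest ratio of any histone gene listed in both libraries.

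Hist1h1d (H1.3) had 13 counts in the knockout library and 60 in the PyMT library, a ratio of 0.22 (0.111 to 0.405). Hist1h1b (H1.5) had 16 counts in the knockout library and 44 in the PyMT library, a ratio of 0.369 (0.194 to 0.667). The direction was not shared by the 2 rarest. Hist1h1a (H1.1) had 9 and 6 counts, with an interval of 0.484 to 5.19 that spans 1, and the testis-specific Hist1h1t had 2 counts in the knockout library and was not listed in the PyMT library. Without Hist1h1c the H1 sum was 47 counts in the knockout library and 258 in the PyMT library, a ratio of 0.185 (0.132 to 0.253). Among the 4 H1 genes with an FPKM of 1 or more, only Hist1h1c had a transcript with AATAAA in its last 50 bases.

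The promoter windows of Hist1h1c and Hist1h1e are shown because, of these 4 genes, they had the ratios nearest to and farthest from 1. They span 250 bases before to 50 after the start site, 5′ to 3′ on the gene's strand, from RefSeq on GRCm38.p6, and 54 of the 59 genes matched such a window (55 windows). Capitals mark the H1 box (AAACACA), the CAAT box (letters CCAAT) and the TATA box (letters TATAAA), each searched on both strands. The Hist1h1c window is chr13:23738557-23738856, plus strand, and that of Hist1h1e is chr13:23622509-23622808, minus strand.
Hist1h1c: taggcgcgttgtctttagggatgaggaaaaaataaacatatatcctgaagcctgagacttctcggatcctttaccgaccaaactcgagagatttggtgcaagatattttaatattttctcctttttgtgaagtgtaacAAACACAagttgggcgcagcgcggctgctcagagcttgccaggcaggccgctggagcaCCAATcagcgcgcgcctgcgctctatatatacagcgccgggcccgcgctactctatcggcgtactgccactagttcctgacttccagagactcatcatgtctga
Hist1h1e: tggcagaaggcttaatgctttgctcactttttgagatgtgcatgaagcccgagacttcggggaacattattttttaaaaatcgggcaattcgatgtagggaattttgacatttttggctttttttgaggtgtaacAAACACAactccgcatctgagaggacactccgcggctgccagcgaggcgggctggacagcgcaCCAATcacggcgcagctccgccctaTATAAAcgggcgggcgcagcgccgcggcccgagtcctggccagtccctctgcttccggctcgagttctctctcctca
The H1 box began at -112 in Hist1h1c and at -115 in Hist1h1e, and CCAAT at -54 and at -52. The exact letters TATAAA were found at -27 in Hist1h1e and not in the Hist1h1c window. Looser forms were not searched, and the Hist1h1c window holds the similar stretch tatatata. The H1 box was present in 5 of 6 H1 windows and in 7.18% of all 32851 windows, and CCAAT in all 6 and in 37.4%. A match describes letters, not binding.

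The H2A genes held the highest histone gene of the knockout library and went in both directions. H2A pairs with H2B to form the outer dimers of the nucleosome. Summed, the 14 H2A genes had 2653 counts in the knockout library and 1508 in the PyMT library, a ratio of 1.78 (1.67 to 1.90). Hist1h2ao (chr13:21810367-21810918, plus strand) had 1406.42 counts and 174.72 FPKM in the knockout library, against 207.85 counts and 26.55 FPKM in the PyMT library, a ratio of 6.86 (5.92 to 7.97) and a log2 ratio of 2.67. It was the only gene of the 47 past 3-fold higher on the log2(FPKM + 1) scale. Without it the other 13 H2A genes had 1247 counts in the knockout library and 1300 in the PyMT library, a ratio of 0.973 (0.899 to 1.05). Its counts were not whole. Its neighbouring copy Hist1h2ap, 94.17% identical over 480 annotated bases, was listed in neither table.

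Several other Hist1 H2A genes were also higher. Hist1h2ae had 69.64 counts in the knockout library and 21.64 in the PyMT library, a ratio of 3.23 (1.97 to 5.47). Hist1h2ah had 25.75 against 4.46 counts, a ratio of 6.59 (2.29 to 26.0), Hist1h2ag 58 against 28.71, a ratio of 2.03 (1.28 to 3.29), and Hist1h2ab 16.11 against 5.48, a ratio of 3.25 (1.14 to 11.3). Hist1h2ai was lower, with 33.22 counts in the knockout library and 55.13 in the PyMT library, a ratio of 0.609 (0.383 to 0.954). The 9 Hist1 H2A genes other than Hist1h2ao summed to 248 counts in the knockout library and 157 in the PyMT library, a ratio of 1.60 (1.31 to 1.97).

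In the Hist2 cluster H2A genes were lower. Hist2h2aa1 had 560.08 counts in the knockout library and 673.01 in the PyMT library, a ratio of 0.844 (0.753 to 0.945), and its copy Hist2h2aa2 had 19.92 and 109.35, a ratio of 0.186 (0.109 to 0.302). The annotated transcripts of these copies were identical over the 528 bases of the shorter, so their ratios are uncertain one by one. Together they had 580 counts in the knockout library and 782 in the PyMT library, a ratio of 0.752 (0.674 to 0.839). Hist2h2ac had 2 and 10.65 counts, a ratio of 0.184 (0.0199 to 0.845). Hist3h2a, with whole counts, was slightly higher, at 417 counts and 58.61 FPKM in the knockout library against 350 counts and 50.87 FPKM in the PyMT library, a ratio of 1.21 (1.05 to 1.40). Summed over types, the Hist1 genes had a ratio of 1.55 (1.47 to 1.62), the Hist2 genes 0.845 (0.766 to 0.933) and the pair of Hist3 genes 1.2 (1.04 to 1.38).

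**Figure D3:**
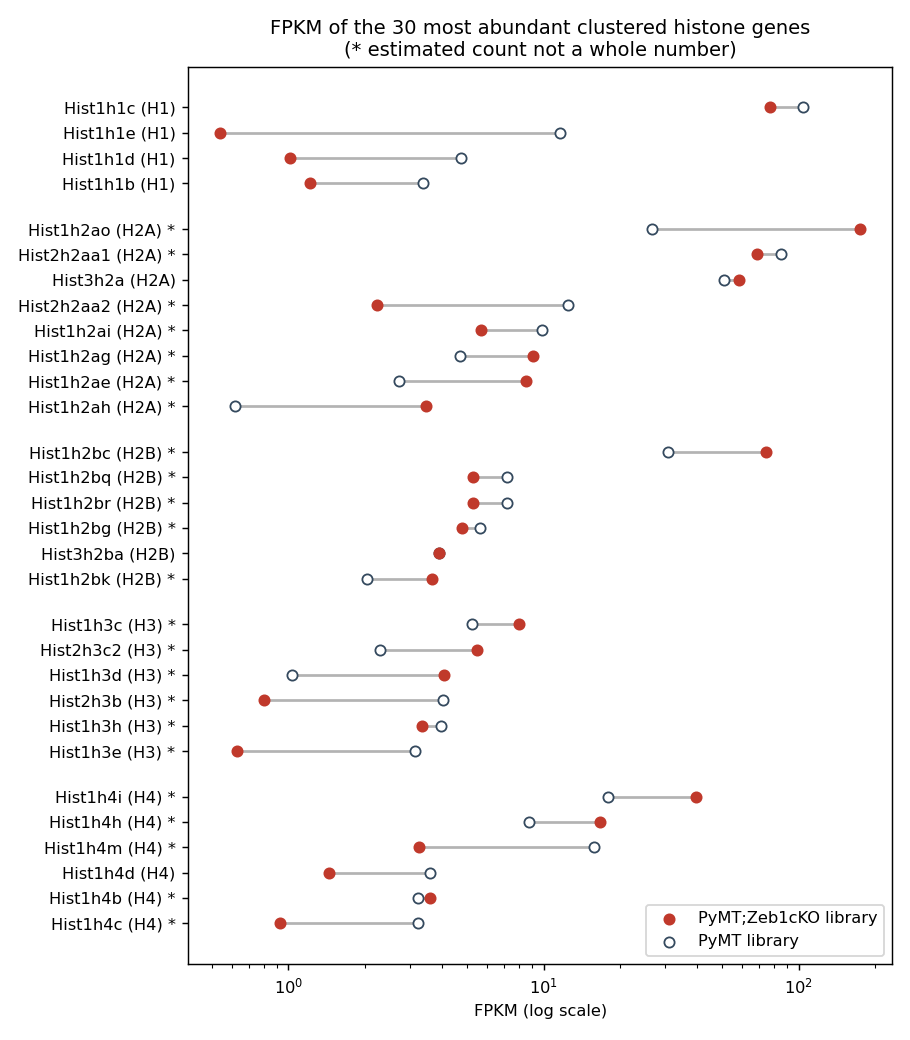
FPKM, on a log scale, of the 30 clustered histone genes with the highest FPKM in either library, grouped by type, with the PyMT;Zeb1cKO library as filled and the PyMT library as open points. The 4 H1 genes shown lie lower in the knockout library, whereas H2A, H2B, H3 and H4 genes lie on either side, from Hist1h2ao at 174.72 and 26.55 FPKM to Hist1h4m at 3.24 and 15.84 FPKM in the knockout and PyMT libraries.

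The H2B sum was higher in the knockout library, and mostly through Hist1h2bc. The 16 H2B genes had 1223 counts in the knockout library and 619 in the PyMT library, a ratio of 2.00 (1.82 to 2.21). Hist1h2bc had 869.5 counts and 74.28 FPKM in the knockout library against 347.59 counts and 30.79 FPKM in the PyMT library, a ratio of 2.54 (2.24 to 2.88). The other 15 had 353 and 271 counts, a ratio of 1.32 (1.12 to 1.55). Hist2h2be, a gene with a long polyadenylated transcript, had 93 whole counts in the knockout library and 32 in the PyMT library, a ratio of 2.95 (1.95 to 4.55). Its FPKM was low, at 1.75 and 0.60, so its log2(FPKM + 1) ratio was 0.78. It was the only gene with whole counts among the 11 called higher by counts, while 3 of the 8 called lower had whole counts, all of them H1 genes.

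Other H2B genes differed less. Hist1h2bg had 29.62 counts in the knockout library and 33.34 in the PyMT library, Hist1h2bk 25.43 and 13.7, and Hist3h2ba 24 and 23, and each interval spanned 1. Hist1h2bq and Hist1h2br each had 59.24 counts in the knockout library and 49.17 in the PyMT library, a ratio of 1.22 for the pair (0.926 to 1.61). Their FPKM ran the other way, at 5.28 in the knockout library and 7.18 in the PyMT library. The tables give the length over which each was averaged as 700.57 bases in the knockout library and 506.27 in the PyMT library, weighted over 2 transcripts, so the longer transcript took a larger share there than in the PyMT library. For Hist1h2be that length was 672.59 and 614.19 bases, for Hist1h2bc 723.86 and 712.38, and for Hist1h2bp 456 in both. Among all 5782 compared genes with more than 1 transcript and listed in both tables, the length was greater in the knockout library for 49.6%.

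Many H2A and H2B genes lie head to head and share the stretch between their start sites, and the partners' ratios are set side by side as a description, with no other gene pairs to compare them with. There were 9 pairs in which both genes were listed in at least 1 table, with 163 to 248 bases between them. Hist1h2ao, with its ratio of 6.86 (5.92 to 7.97), faces Hist1h2bq, at 1.22 (0.822 to 1.82). Hist1h2ae, at 3.23 (1.97 to 5.47), faces Hist1h2bg, at 0.922 (0.543 to 1.56). In these cases the H2A gene had the higher ratio. The order was turned round in a further pair of cases. Hist1h2bc, at 2.54 (2.24 to 2.88), faces Hist1h2ac, which had 5.36 counts in the knockout library and 8.01 in the PyMT library, at 0.634 (0.163 to 2.2), with bounds that nearly touch. Hist2h2be, at 2.95 (1.95 to 4.55), faces Hist2h2ac, at 0.184 (0.0199 to 0.845). Of the 8 genes in these pairs, all but Hist2h2be had non-whole counts, and the intervals do not cover the division of reads. In the other 5 pairs the intervals overlapped or a gene was not listed in a library. Hist1h2ah and Hist1h2bk, for example, had ratios of 6.59 (2.29 to 26.0) and 1.81 (0.906 to 3.77).

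**Figure D4:**
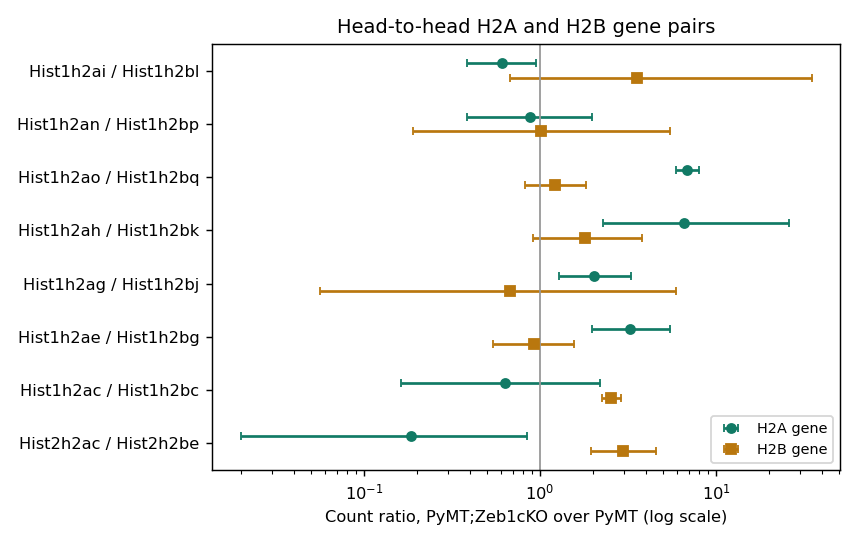
Count ratios of PyMT;Zeb1cKO over PyMT, on a log scale with 95% counting intervals, for the genes of 8 head-to-head H2A and H2B pairs (Hist1h2ak with Hist1h2bn, which was not listed in the knockout library, is left out). Hist1h2ao lies at 6.86 beside its partner Hist1h2bq at 1.22, and Hist2h2be at 2.95 beside Hist2h2ac at 0.184.

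The promoter windows of Hist1h2ao and Hist1h2ae are shown because these genes had higher ratios than their partners. They hold the 167 and 179 bases shared with Hist1h2bq and Hist1h2bg, and run on into both genes of each pair. Capitals mark the CAAT box, the TATA box and the octamer ATTTGCAT, which binds the factor Oct1 (Pou2f1) and is known from H2B promoters, on either strand. The windows are chr13:21810117-21810416, plus strand, and chr13:23571171-23571470, minus strand.
Hist1h2ao: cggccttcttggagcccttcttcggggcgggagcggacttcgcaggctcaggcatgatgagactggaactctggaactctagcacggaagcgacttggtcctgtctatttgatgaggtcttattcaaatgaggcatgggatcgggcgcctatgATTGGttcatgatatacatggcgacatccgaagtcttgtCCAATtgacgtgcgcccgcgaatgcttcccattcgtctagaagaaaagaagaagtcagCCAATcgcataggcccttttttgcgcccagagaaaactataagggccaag
Hist1h2ae: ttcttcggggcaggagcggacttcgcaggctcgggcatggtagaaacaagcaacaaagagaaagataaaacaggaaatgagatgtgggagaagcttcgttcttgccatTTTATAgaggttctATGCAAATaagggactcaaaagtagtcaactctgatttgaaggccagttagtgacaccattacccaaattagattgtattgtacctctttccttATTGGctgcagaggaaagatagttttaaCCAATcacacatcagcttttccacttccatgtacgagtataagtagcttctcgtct
In Hist1h2ae the octamer stood at -128 and TATAAA at -142, both on the strand opposite to this gene. Neither of these exact strings was in the Hist1h2ao window, and looser forms were not searched. The octamer was present in 6 of 14 H2A windows and 6 of 15 H2B windows, which overlap where genes are paired. It was in none of the H1, H3 or H4 windows, and in 1.74% of all windows. CCAAT stood in every H2A, H2B and H3 window and in 3 of 11 H4 windows, and TATAAA in 30 of the 55 histone windows, against 13.6% of all.

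The H3 and H4 genes form the central tetramer of the nucleosome, and the H4 sum was higher in the knockout library. The 11 H3 genes had 209 counts in the knockout library and 175 in the PyMT library, a ratio of 1.21 with an interval (0.986 to 1.49) that spans 1. Within them, Hist1h3d had 28.53 counts in the knockout library and 6.99 in the PyMT library, a ratio of 4.2 (1.80 to 11.4), and Hist2h3c2 had 55.41 and 22.71, a ratio of 2.43 (1.47 to 4.14). Hist1h3c, the gene with the most H3 counts over both libraries, had 52.52 and 33.01, a ratio of 1.63 (1.04 to 2.60). Lower in the knockout library were Hist2h3b, with 5.59 and 27.29 counts and a ratio of 0.225 (0.0761 to 0.557), and Hist1h3e, with 4 and 18.99 counts and a ratio of 0.214 (0.0528 to 0.642). Hist1h3h had 22.26 and 25.67 counts. All these H3 genes had non-whole counts in at least 1 library.

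The 12 H4 genes had 376 counts in the knockout library and 285 in the PyMT library, a ratio of 1.34 (1.14 to 1.57). Hist1h4i had 194 counts and 39.61 FPKM in the knockout library against 83.01 counts and 17.91 FPKM in the PyMT library, a ratio of 2.37 (1.82 to 3.10). Hist1h4h had 93 and 46.47 counts, a ratio of 2.05 (1.43 to 2.99). Hist1h4m went the other way, with 16 counts in the knockout library and 74.08 in the PyMT library, a ratio of 0.219 (0.119 to 0.38). Its copy Hist1h4n, which differed at 1 of 402 annotated bases, was listed in neither table. Without Hist1h4i the H4 ratio was 0.914. Hist1h4c (4 and 12.97 counts), Hist1h4d (6 and 14) and Hist1h4b (21.1 and 18.08) had intervals that spanned 1.

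The other 26 histone genes, 14 of them with an FPKM of at least 1 in a library, were rarer, with at most 21.8 counts in the knockout library and 28.07 in the PyMT library. Of these, 22 were listed in both libraries, with ratios between 0.477 and 3.55, and no interval among the 26 left out 1. Hist1h3b and Hist1h4f, like Hist1h1t, were listed in the knockout library alone, with 1.48, 3 and 2 counts, and Hist1h2bn in the PyMT library alone, with 1.09, all at or under 3 counts. The RefSeq annotation holds 11 further genes of these names, 3 of them pseudogenes, that neither table lists, among them the testis genes Hist1h2aa and Hist1h2ba.

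A list of 8 genes was drawn up from general knowledge as known or thought to make polyadenylated transcripts, and 3 of them (Hist1h2bc, Hist1h2be and Hist2h2aa1) had no annotated AATAAA in the last 50 bases. The 8 genes (Hist1h1c, Hist1h2bc, Hist1h2be, Hist2h2aa1, Hist2h2be, Hist3h2a, Hist3h2ba and Hist4h4) held 53.6% of the histone counts in the knockout library and 65.9% in the PyMT library. They summed to 2902 counts in the knockout library and 2666 in the PyMT library, a ratio of 1.10 (1.05 to 1.16). On the log2(FPKM + 1) scale 1 of 8 was at least 2-fold higher and none lower, against 10.2% and 8.78% of all compared genes. The other 51 genes summed to 2512 and 1379 counts, a ratio of 1.85 (1.73 to 1.97). Much of that knockout sum was Hist1h2ao, which was then taken out, a choice made after its value was seen. The 50 genes left had 1106 counts in the knockout library and 1171 in the PyMT library, a ratio of 0.958 (0.882 to 1.04). No gene was taken out of the 8, where Hist1h2bc held 869.5 counts in the knockout library and 347.59 in the PyMT library. Split by the annotated hexamer instead, the 13 genes with AATAAA had 1664 and 1763 counts, a ratio of 0.957 (0.895 to 1.02). The 46 without it had 3750 and 2282 counts, a ratio of 1.67 (1.58 to 1.76). Those 46 hold both Hist1h2ao (1406.42 and 207.85 counts) and Hist1h2bc, and neither was taken out here.

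The clustered histone genes were set beside S phase genes and other genes that supply or handle histones. Of 25 S phase genes, 24 were higher by 2-fold or more and none lower by as much, with a median log2 ratio of 1.88. Among all compared genes 10.2% were higher and 8.78% lower, which is also the background for the lists that follow. The replication clamp Pcna, for example, was at 199.76 FPKM in the knockout library and 60.14 in the PyMT library, and the S phase cyclin Ccna2 at 47.71 and 4.43. Against this, the median of the clustered histone genes was -0.14. By summed counts the ratio was 1.36 (1.30 to 1.41) for the clustered histone genes and 4.48 (4.39 to 4.57) for the S phase genes. Most clustered histone genes held fewer than 20 counts. Oligo(dT) capture does not select tailless histone messages, so the lists were not measured alike. Whether the lists differ was not tested.

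Histone chaperones carry new histones to DNA. Of 32, 17 were at least 2-fold higher and none lower, with a median of 1.03. Nasp, which holds the H3 and H4 pool, was at 57.55 FPKM in the knockout library and 13.21 in the PyMT library, a count ratio of 4.47 (4.08 to 4.92). The H3 and H4 co-chaperone Dnajc9 was at 52.73 and 11.92, and Mcm2, a helicase subunit that also binds H3 and H4, at 47.39 and 7.71. At the other end were Daxx, which deposits H3.3 (27.06 and 35.55 FPKM, log2 ratio -0.38), Ubn2, of the H3.3-depositing Hira complex (2.52 and 3.23), and Spty2d1 (5.21 and 6.06). Chaf1a, the large subunit of the replication-coupled chaperone CAF-1, was at 25.36 and 8.37.

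**Figure D5:**
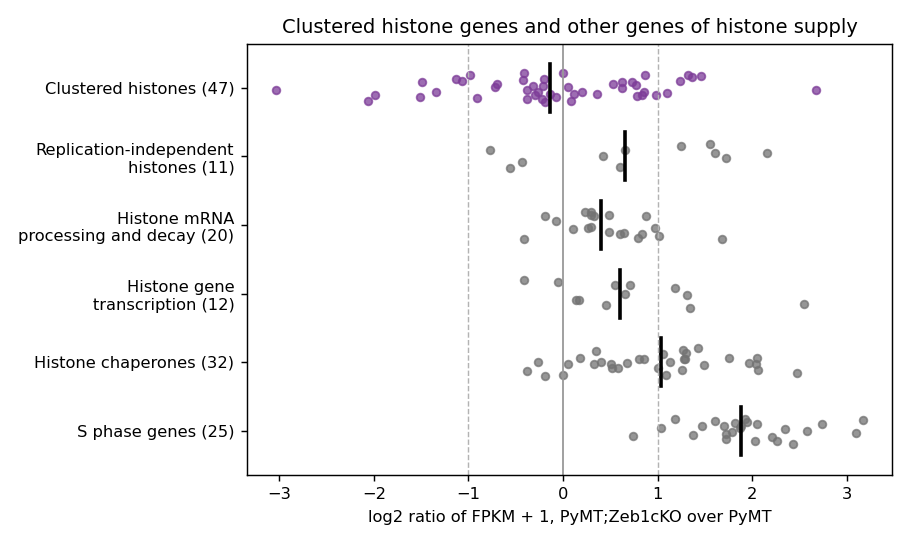
Log2 ratios of FPKM + 1, PyMT;Zeb1cKO over PyMT, for each gene with an FPKM of at least 1 in a library, by gene list (number of genes in brackets), with the list's median as a black bar and dashed lines at 2-fold. The medians run from -0.14 for the clustered histone genes to 1.88 for the S phase genes, and the clustered histone genes spread on both sides of 0, from -3.03 to 2.67.

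Of 20 genes of histone mRNA processing and decay, 2 were at least 2-fold higher, near the 10.2% of all compared genes, and none lower. Their median was 0.40. Slbp, the stem-loop binding protein, was at 28.1 FPKM in the knockout library and 13.86 in the PyMT library, a count ratio of 2.05 (1.84 to 2.28) and a log2 ratio of 0.97. The cap-binding subunit Ncbp2 was at 54.72 and 16.33, and its partner Srrt (Ars2) at 94.59 and 46.47. Lowest were the kinase Cdk9, at 37.48 and 50.3, the U7 snRNP protein Lsm10, at 21.64 and 24.79, and Zcchc6, a terminal uridylyltransferase, at 10.14 and 10.68. Of 12 genes of histone gene transcription, 4 were at least 2-fold higher and none lower, with a median of 0.60. Ccne1, the cyclin whose kinase activates the histone gene coactivator Npat, was at 16.73 FPKM in the knockout library and 2.02 in the PyMT library, Ccne2 at 1.74 and 0.08, and the Cdk2-activating phosphatase Cdc25a at 18.17 and 6.71. Npat itself was at 2.49 and 1.39 (count ratio 1.79, 1.51 to 2.13). Foxk1 was at 6.40 and 8.84, Pou2f1 at 1.49 and 1.58, and Gon4l at 10.86 and 9.78.

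Replication-independent histone genes, whose messages are mostly polyadenylated, had a far higher summed FPKM than the clustered genes. Oligo(dT) capture favours such messages, so these sums do not compare the amounts in the cells. Their summed FPKM was 2888 in the knockout library and 2502 in the PyMT library, against 629.8 and 477.9 for the clustered genes. By counts their sum was slightly lower, at 81360 in the knockout library and 83485 in the PyMT library, a ratio of 0.988 (0.979 to 0.998). Of the 11 listed, 5 were at least 2-fold higher and none lower, with a median of 0.65. The centromeric H3 variant Cenpa was at 54.17 FPKM in the knockout library and 11.45 in the PyMT library, a count ratio of 4.91 (4.33 to 5.58). The linker histone H1fx was at 32.82 and 9.25, and H2afx, the H2A variant phosphorylated at DNA breaks, at 63.6 and 20.36, with non-whole counts. H2afz (H2A.Z) was at 673.99 and 229.19. Lower were H1f0, the linker histone of cells that have left the cycle, at 211.71 and 361.67 FPKM (count ratio 0.59, 0.575 to 0.605), H3f3b, a gene for H3.3, at 650.89 and 959.58, and H2afj at 181.48 and 244.47. The other H3.3 gene, H3f3a was at 785.9 and 502.15.

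Of 12 genes for enzymes and partners that modify histones in S phase and mitosis, 3 were at least 2-fold higher and none lower, with a median of 0.76. Highest were the kinase Aurkb, which phosphorylates H3 in mitosis, at 37.01 FPKM in the knockout library and 5.38 in the PyMT library, the H3K27 methyltransferase Ezh2 at 29.88 and 9.31, and the H3K9 methyltransferase Suv39h2 at 2.2 and 0.20. Lowest were the acetyltransferase Kat7, at 16.5 and 20.5, and the H3K79 methyltransferase Dot1l, at 7.13 and 7.80. Immediate-early genes, by contrast, were lower (8 of 10 at least 2-fold, median -2.03), as were genes of hypoxia and glycolysis (11 of 12, median -2.48), and the part of either in the histone values was not tested.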

How the data were processed

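RNA-seq of 2 libraries, 1 per group, was analysed. The authors deposited for each library an expected count and an FPKM value per gene, per the file headers. The submitters' processing notes name DESeq, RSEM 1.2.8, Bowtie2 2.2.5 and HISAT2 2.1.0 and the build mm10, with no role for each, and no annotation is named. Tables list genes with a value above 0, so a gene not listed was taken as 0.

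Log2 ratios were computed as log2 of (FPKM + 1), knockout over PyMT, for genes reaching an FPKM of 1 in either library. Count ratios used rounded expected counts over library totals, with exact 95% Clopper-Pearson intervals that cover counting error only. A count was called whole within 1e-09. There are no replicates, hence no p-values, and 2-fold is a rule of size. The members and gene lists were chosen with earlier results of these data known. Histone genes named are the 30 with the highest FPKM in the higher library and 3 others at least 2-fold apart by counts with an interval leaving out 1, further genes being named for pairs, lengths or listing. Of the other lists, up to 3 genes with the highest and 3 with the lowest ratio were named, with a few chosen after their values were seen (Pcna, Nasp, Chaf1a, Npat, H2afz and H3f3a). The lists held 196 genes, of which 6 were not found. The result of the lymphocyte marker list is not reported here. Stem-loops and hexamers were searched in GENCODE M21 transcripts and promoter motifs in RefSeq windows (GRCm38.p6). The count ratio, its interval and its 2-fold call were tested on simulated counts, with no reads shared among genes. The simulation did not cover the other steps. Tools were edgeR 4.0.16 under R 4.3.3 (for TMM factors alone) and Python 3.11.15 with scipy 1.17.1, pandas 2.3.3, numpy 2.4.6 and matplotlib 3.10.9.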

Additional observations from a re-analysis of the deposited data

How the results depend on the processing

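No paired analysis was possible because each group has 1 library. With a pseudocount of 0.1, 12 histone genes were at least 2-fold higher. With CPM and TMM factors, which change unit and scaling together, 3 were higher and 4 lower, and the cause was not tested. An FPKM of at least 5 left 18 histone genes. Of these, 4 were higher (22.2%, against 10.7% of all 9439 genes left) and 3 lower (16.7%, against 9.03%). Without genes of non-whole counts, which leaves 11 of the 47, 0 were higher (against 9.58% of all 10631 genes left) and 2 lower (against 8.64%), with a median of -0.42. At 1.5-fold 15 were higher and 12 lower, and at 3-fold 1 was higher and 3 lower, with no background share given here. Median ratio scaling, TPM, no filter, a mean FPKM of at least 1 with at least 20 counts, and a floor of 3 counts kept both counts within 1.5 times. They gave 5 to 7 higher and 6 to 10 lower, over sets of 38 to 59 histone genes. As shares, 10.2% to 15.8% were higher, against 7.59% to 10.4% of all genes. Lower were 13.6% to 21.3%, against 6.57% to 10.8%. Across all compared genes, median ratio scaling turned 1291 higher and 1111 lower into 960 and 1362, and took their median log2 ratio to 0.0 from 0.13. The summed ratio was 1.61 without Hist1h1c, the gene with the most counts, 1.85 without the 8 genes listed as known or thought to be polyadenylated, 0.813 without non-whole counts, 1.21 with median ratio scaling, 1.22 with TMM factors and, chosen after seeing the data, 1.06 without Hist1h2ao and 0.912 without Hist1h2ao and Hist1h2bc. Without its gene with the most counts, the ratio was 0.185 for H1, 0.973 for H2A, 1.32 for H2B and 0.914 for H4. Median ratio scaling and TMM factors gave 0.591 and 0.597 for H1, 1.59 and 1.61 for H2A and 1.79 and 1.80 for H2B. Of the 30 named genes, 26 kept their sign under each pseudocount and scaling, and Hist1h2bq, Hist1h2br, Hist3h2ba and Hist1h4b did not. Most histone genes held too few counts for their direction to be read.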
